A study of Homo sapiens with 2 samples.

Results

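Introns are removed from a transcript in the nucleus, so protein bound within an intron may have met unspliced RNA or the excised intron. Some introns are also the source of small nucleolar RNAs (snoRNAs), which guide the chemical modification of ribosomal RNA and are trimmed from the intron after splicing. DDX18, a helicase of the DEAD-box family, is found in the nucleolus and takes part in ribosome assembly. The peaks described here are those of DDX18 on RNA in the second or a later intron of the annotated transcript, outside named repeats. They numbered 1259 of 16095 distinct positions, or 7.82% (exact 95% binomial interval 7.41 to 8.25). Peaks inside annotated snoRNA and small Cajal body RNA genes were to be left out too, but the check for them could act on the plus strand only.

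RNA bound by DDX18 was measured by iCLIP, which cross-links protein to RNA with ultraviolet light and sequences the RNA that is pulled down. The cells were H9, an established line of human embryonic stem cells (ESC), kept on irradiated mouse embryonic fibroblasts (MEFs) as feeders under normal culture. Both samples carried 3XFlag-DDX18, were irradiated with 160 mJ/cm2 at 254 nm and went through immunoprecipitation with a Flag antibody. The design had 1 group of 2 samples, replicates 1 and 2, which share 1 list of significant peaks. The list has no value per replicate and no control library was analysed here, so no spread between samples and no test between groups can be given. The promoter of the tagged protein is not given in the sources used here. A peak of any kind was listed for 20 of 33 pluripotency factors, 4 of 15 neuroectoderm, 2 of 15 mesoderm and 1 of 13 endoderm markers, and 7 of 15 markers of fibroblast-type feeders, against 6218 of 20052 protein-coding genes (31.0%).

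The members came from 1305 entries, of which 46 repeated a position under another gene. A total of 295 members lay in intron 2, 184 in intron 3 and 119 in intron 4, and the members reached intron 134. Just outside the rule, intron 1 held 563 positions without a repeat name. The median height, the number the authors deposited for the top of each peak, was 6 in intron 1, in intron 2 and in intron 3. The median member lay in intron 5 (quartiles 3 and 10) of a transcript with a median of 13 introns. Last introns held 143 members (11.4%, 9.66 to 13.2), with a median height of 6 and a median width of 20 nt, against 6 and 22 nt for members in introns between the ends.

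Each entry names a gene in which the peak was called, beside the annotated transcript. The transcript was one of the called gene at 1213 members and of another gene at 26, and at 20 it was not found in the gene table. The exclusion of peaks inside snoRNA genes took out 0 entries, but it could act on plus-strand peaks only. It read a distance of 0 or more from the gene start as inside. For minus-strand peaks the deposited distance has the reverse sign, such as -46163 at a CHCHD3 peak inside that gene. The minus strand held 591 members. By that check, 10 members were nearest to a snoRNA or small Cajal body RNA gene but outside it. A name for a CpG island stood at 24 members. An intron here is one of the hg19 annotation of the list, and exons or small RNAs annotated later may lie within it.

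Most later-intron peaks were low and broad. A height of exactly 6 was held by 674 members (53.5%, 50.7 to 56.3), by 301 positions in first introns (53.5%, 49.2 to 57.6) and by 1089 positions in internal coding exons (17.0%). A further 314 members were below 6 and 271 above it. Heights summed to 12340, or 1.89% of the 653535 in the list. Peaks were 21 nt wide at the median (quartiles 16 and 29), against 22 nt in first introns and 10 nt in internal coding exons. At least 15 nt were spanned by 1055 members (83.8%, 81.6 to 85.8), by 86.0% of first-intron peaks (82.8 to 88.7) and by 37.2% of peaks in internal coding exons (36.1 to 38.4). Among peaks of height 7 or more alone, 62.0% of members (55.9 to 67.8) and 26.2% of internal exon peaks were that wide. The intervals of later and first introns overlap in height and width, while those of later introns and internal coding exons do not. The intervals cover counting error only, and peaks of 1 list are not replicates, so these differences were not tested.

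**Figure D1:**
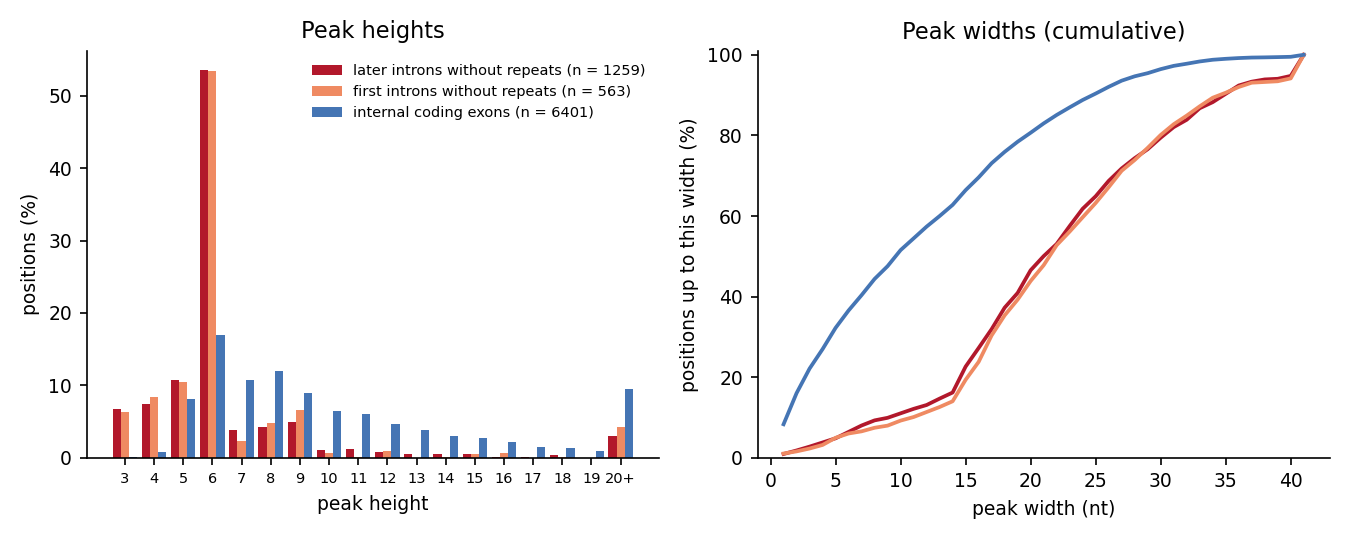
Left, the percentage of positions at each peak height (20+ pools all heights of 20 or more). Right, the cumulative percentage of positions up to each peak width in nt. Later introns (1259 positions) and first introns (563) show the same peak at a height of 6 and the same broad widths, with medians of 21 and 22 nt, while internal coding exons (6401) have a median width of 10 nt.

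The authors' list also gives each peak a value read here as the height expected by chance, which was the same for all members of a gene, and a p-value. A position listed under several genes has a value for each, and the entry whose gene matches the annotated transcript is used. How either was computed is not stated. The median expected height was 0.02 at later-intron members, 0.03 in first introns and 0.12 in internal coding exons. The height stood at a median of 280 times the expected height at members, 250 times in first introns and 77.8 times in internal coding exons. Expected heights are listed in steps of 0.01, so these ratios are coarse where the listed value is small. At 209 members the expected height was listed as 0.00, and these enter the median as above any measured ratio. The median p was 0.000487 at members, 0.000657 in first introns and 3.68e-05 in internal coding exons. A member of height 6 had a deposited p between 1e-100, the lowest value listed, and 0.05, the highest. Peaks of the same height thus spanned the whole range of listed p-values.

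The height of the members was concentrated in a few peaks. CACNA2D3, which encodes an auxiliary subunit of voltage-gated calcium channels, had the highest, of height 1738 in intron 3 of 37 (chromosome 3, 54356777 to 54356789 on hg19, plus strand). That 1 peak held 14.1% of the summed height of all members, and the 10 highest held 27.9%. ARHGAP39, a GTPase-activating protein, had a peak of 443 in intron 3 of 12. GALNT14, an enzyme that starts O-linked glycosylation, had one of 213 in intron 10 of 15. PARP8, of the ADP-ribosyltransferase family, had one of 177 in intron 9 of 25, and ST3GAL1, a sialyltransferase, one of 156 in intron 7 of 9. SMOC2, a secreted calcium-binding matrix protein, had one of 146 in intron 4 of 12. The expected heights at these 6 peaks ran from 0.02 at SMOC2 to 0.11 at ARHGAP39. Each of the 6 genes had 1 later-intron member, and none had a neighbouring member within 1000 nt.

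A total of 28 members reached a height of 40. Those in genes that hold a snoRNA gene were narrower, and most of their genes shorter, than those in genes that hold none. Both the height limit and this division were chosen after heights, widths and expected heights had been seen, so the differences are a description with no test. The gene table places at least 1 snoRNA gene inside the called gene for 9 of the 28 (32.1%, 15.9 to 52.4), against 46 of all 1259 members (3.65%, 2.69 to 4.84). At heights of 13 to 39 the share was 6 of 37, and at a height of 6 it was 17 of 674 (2.52%). The 9 peaks were 1 to 6 nt wide (median 2), and 7 of them were at most 2 nt wide. The other 19 were 5 to 21 nt wide (median 15), and 14 of these measured 11 to 18 nt. The expected heights of the 9 ran from 0.28 to 1.74 and those of the 19 from 0 to 0.21, with each peak under the entry kept for it. This separation rests in part on that choice, because the expected height belongs to the called gene. Under SEC31A, the other gene listed for both THAP9-AS1 peaks, it was 0.21, equal to the highest of the 19, and under SNHG4, the other gene listed for the MATR3 peak, it was 3.83. SEC31A and SNHG4 also hold a snoRNA gene, so the division into 9 and 19 was the same under either entry. The called genes had a median length of 14.6 kb for the 9 peaks (7.46 to 57.6) and of 192 kb for the 19 (9.52 to 952), so gene lengths overlapped, as did the widths at 5 and 6 nt. Only snoRNA genes named SNORD, SNORA or SCARNA were counted, on either strand, and RABGAP1L among the 19 holds one under another name. The gene table describes another genome build, so whether a peak lies in the snoRNA itself was not tested.

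**Figure D2:**
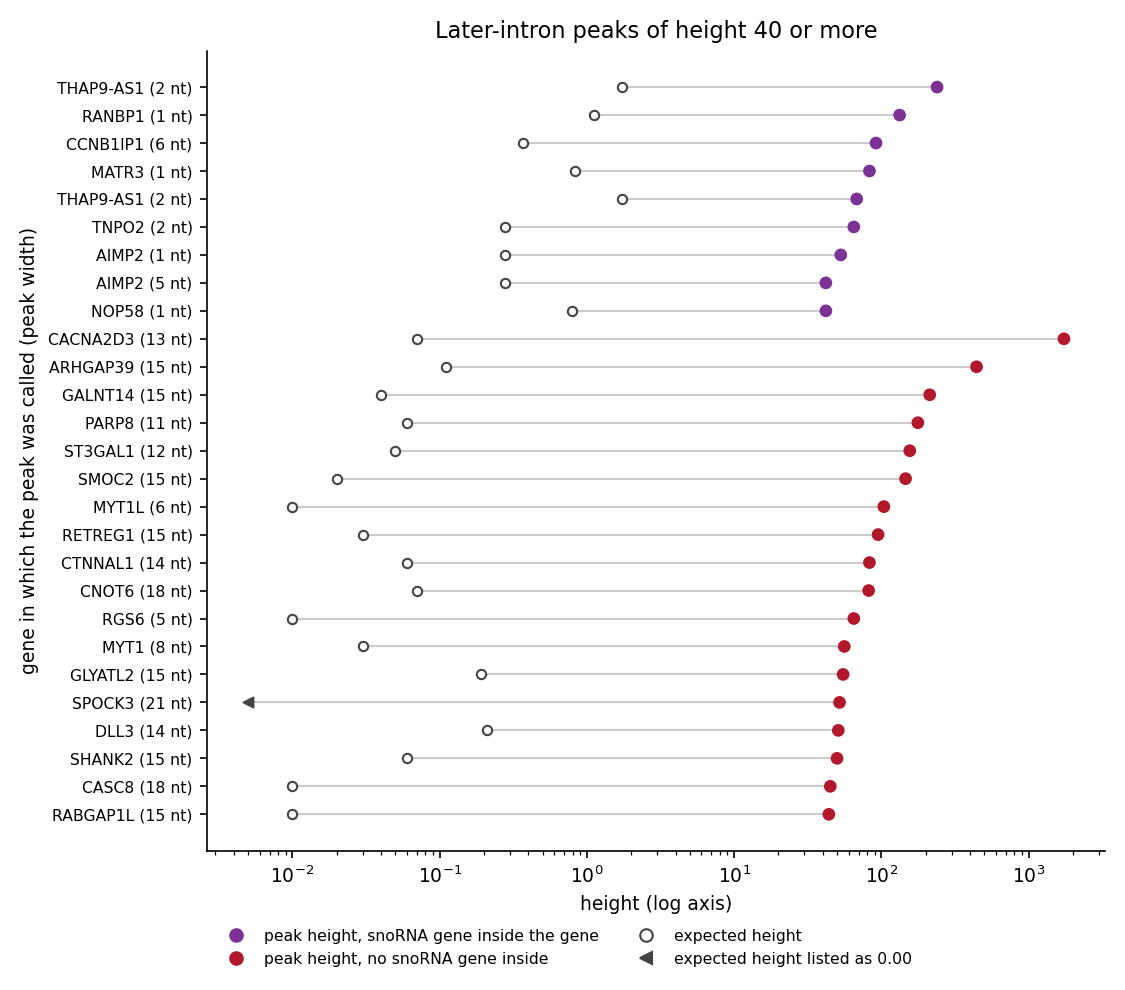
Each row is 1 later-intron peak of height 40 or more (1 of the 28 is not drawn), with the gene and the peak width in brackets. Filled circles give the height and open circles the expected height on a log axis (an arrowhead marks one listed as 0.00), and the 9 peaks at the top were called in genes with a snoRNA gene inside. Their expected heights of 0.28 to 1.74 lie to the right of those of the peaks below, with each peak drawn under the entry kept for it.

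THAP9-AS1, a long non-coding RNA gene, had the highest peak among those 9, of height 239 and 2 nt wide in intron 2 of 3 (chromosome 4, 83817020 to 83817021, minus strand). It had another of height 68, also 2 nt wide, at 83819315. Both were also listed under SEC31A, a coat protein gene of the secretory pathway, and the table places SNORD143 and SNORD144 inside THAP9-AS1. RANBP1, a cofactor of the nuclear transport GTPase Ran, had a peak of 133 at the single base 20114005 of chromosome 22, in intron 5 of 5, and holds SNORA77B. CCNB1IP1, a ubiquitin ligase known from mouse meiosis, had one of 92 in intron 4 of 7, and holds SNORA79B and SNORD126. MATR3, which encodes the nuclear RNA-binding protein matrin 3, had one of 83 at 1 base, 138611995 of chromosome 5, in intron 2 of 16. That position was also listed under SNHG4, a snoRNA host, and MATR3 holds SNORA74A and SNORA74D. Of these 5 peaks, 4 were 1 or 2 nt wide.

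TNPO2, a nuclear import receptor, had a peak of 65 in intron 18 of 24 and holds SNORD41 and SNORD135. AIMP2, a scaffold of the tRNA synthetase complex, had peaks of 53 and 42 in intron 2 of 3 and holds SNORA80D. They lay at 6056626 and at 6056540 to 6056544 of chromosome 7. NOP58, a core protein of C/D box snoRNPs, had a peak of 42 at the single base 203142874 of chromosome 2, in intron 3 of 14. The nearest annotated start on hg19 was that of SNORD70, 1720 nt away, and NOP58 also holds SNORD11, SNORD11B and SNORD70B. Lower members in genes with a snoRNA gene inside were found in SMARCC1 (28, with SNORD146), RALGAPA1 (27, with SNORA101B), SNHG33 (24, with SNORA63D and SNORA63E), RPL23 (17, with SNORA21 and SNORA21B) and UBAP2L (16, with SNORA58B). These 5 peaks were 8 to 19 nt wide. The expected height of RPL23 was 2.24, the highest of all members under the entries kept, and its peak stood 7.59 times above it.

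The remaining high peaks in genes with no snoRNA gene inside lay in genes of many kinds. MYT1L, a zinc finger transcription factor of neurons, had a peak of 104 in intron 21 of 24, and its relative MYT1 one of 56 in intron 16 of 22. RETREG1, a receptor for the turnover of endoplasmic reticulum, had one of 95 in intron 2 of 8, CTNNAL1, a protein related to alpha-catenin, one of 83, and CNOT6, a deadenylase of the CCR4-NOT complex, one of 82. RGS6, a regulator of G protein signalling, had one of 65 in intron 2 of 15. DLL3, a Notch ligand, had one of 51 in intron 3 of 7 that carried a CpG island name. SPOCK3, a secreted proteoglycan, had one of 52 in intron 7 of 11 with an expected height listed as 0.00. By the smallest deposited p and then the height over the expected height, SPOCK3 was followed by CA10 (14), BICC1 (12), CCSER1 (12) and PKNOX2 (11), all with expected heights listed as 0.00. Further peaks of 40 or more lay in GLYATL2, an acyltransferase gene (55), SHANK2, a scaffold of excitatory synapses (50), CASC8, a long non-coding RNA gene (45 in intron 4 of 4), and RABGAP1L (44).

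**Figure D3:**
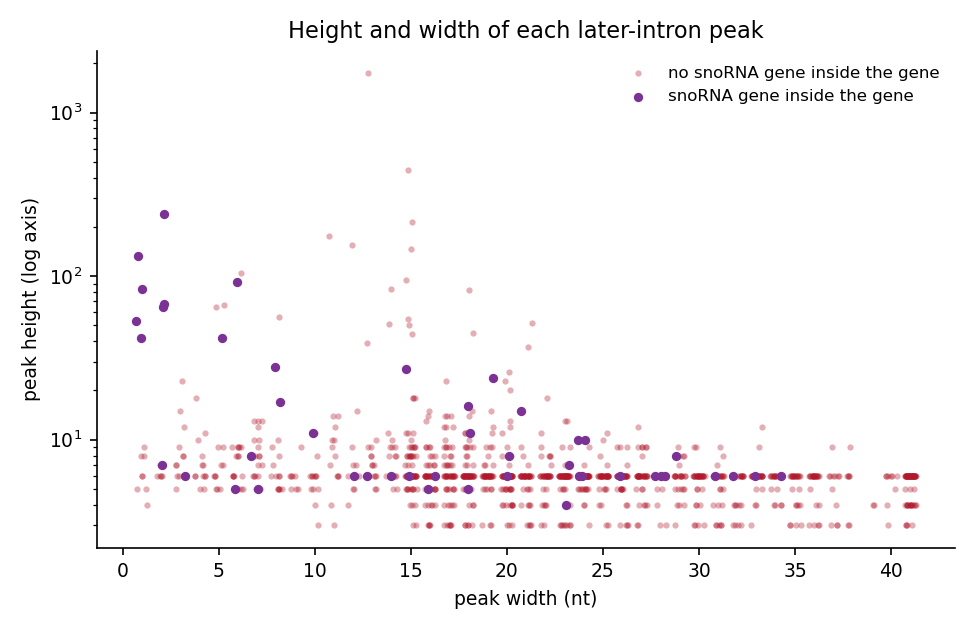
Each point is 1 later-intron peak, with its width in nt (jittered sideways) and its height on a log axis, and large dark points mark peaks called in a gene with a snoRNA gene inside. The row of points at a height of 6 holds 674 peaks, and the 7 peaks of height 40 or more that are at most 2 nt wide are all dark.

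Later-intron peaks were spread thinly over many genes. They were called in 1070 gene identifiers, of which 1061 matched the gene table, and 893 of these had 1 member, 133 had 2 and 35 had 3 or more. Protein-coding genes numbered 1005 of 20052 (5.01%), and 37 were long non-coding RNA genes. In 519 of the 1061 genes (48.9%, 45.9 to 52.0) the later-intron members were the only peaks listed, and 378 (35.6%) also had a peak in an exon or untranslated region. Over all 20052 protein-coding genes, 2673 had a peak in an internal coding exon, which is a narrower class. The share of all genes with a peak in any exon or untranslated region was not counted, so 35.6% cannot be read as low or high. Members mostly stood alone. A neighbouring member lay within 1000 nt on the same strand at 46 of 1259 (3.65%, 2.69 to 4.84) and within 100 nt at 14 (1.11%). Any listed peak lay within 100 nt at 15 members (1.19%, 0.668 to 1.96), at 6 first-intron peaks (1.07%) and at 424 internal coding exon peaks (6.62%, 6.03 to 7.26).

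The share of genes with a later-intron peak grew with gene length in every step. It was 0.298% of 5705 protein-coding genes under 10 kb, 1.73% of those from 10 to 30 kb, 5.18% from 30 to 100 kb, 13.9% from 100 to 300 kb and 32.2% of 773 genes of 300 kb or more (28.9 to 35.6). Internal coding exon peaks were found in 3.38%, 11.2%, 19.7%, 24.8% and 18.5% of the same classes. Per Mb of gene, later-intron peaks numbered 0.714, 0.977, 1.07, 1.01 and 0.786 from the shortest to the longest class. Internal coding exon peaks numbered 13.3, 11.8, 8.28, 4.54 and 1.05 per Mb in the same order. The later-intron density was thus highest in the middle class and lowest in the shortest, while the exonic density was 12.7-fold higher in the shortest class than in the longest and fell at each step. Both were divided by whole gene length, introns included. The exonic values are therefore not densities per Mb of exon and do not show whether exons of short genes held more peaks per base. Genes with a later-intron member had a median length of 138 kb (124 to 147), genes with a first-intron peak 119 kb (103 to 137), genes with an internal coding exon peak 53.0 kb (50.5 to 56.4) and all protein-coding genes 24.1 kb. Expression is not in the list, so the part of transcription level in these shares was not tested.

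**Figure D4:**
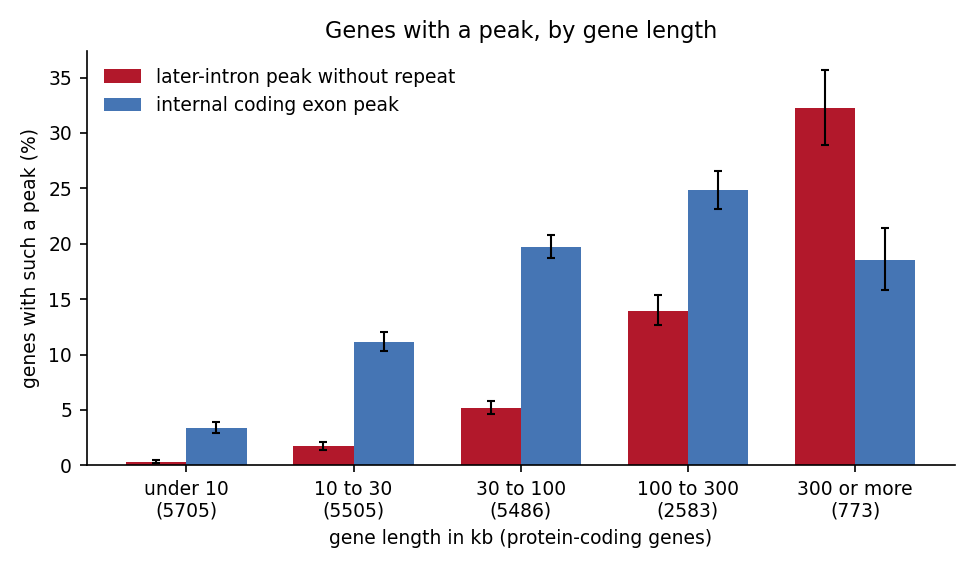
Bars give the percentage of protein-coding genes in each length class (number of genes in brackets, lengths in kb) with a later-intron peak and with an internal coding exon peak, and lines are exact 95% binomial intervals. Later-intron peaks reach 32.2% of genes of 300 kb or more and internal coding exon peaks 18.5%.

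The genes with the most members included several very long ones, with low peaks. WWOX, an oxidoreductase gene at a fragile site, had 5 members in its intron 7 of 7, with heights of 6, 6, 8, 6 and 6 between positions 78494875 and 78889479 of chromosome 16, and no exonic peak. AUTS2, a neurodevelopmental gene, had 5 with heights of 5 and 6 and also 3 exonic peaks. FHOD3, a formin of muscle, had 4 with heights of 6, 6, 9 and 6, and TEAD1, a transcription factor of the Hippo pathway, had 4 of height 6. ARID1B, a subunit of the BAF chromatin remodeler, had 4 of height 6 in introns 5 and 15 of 19 beside 5 exonic peaks. MGMT, a DNA repair enzyme, had 4 with heights of 5 and 6. In each of these 6 genes the highest member was below 10.

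SPMAP2L and CHCHD3 were different, with many members close together in 1 intron. SPMAP2L, a gene related to a sperm protein, had 8 members in intron 6 of 8 within 2214 nt of chromosome 4 (57459278 to 57461491, plus strand), with heights of 9, 15, 9, 8, 7, 9, 11 and 6 in order of position. CHCHD3, a subunit of the complex that shapes mitochondrial cristae, had 6 in intron 2 of 7 within 1052 nt of chromosome 7 (132719624 to 132720675, minus strand), with heights of 10, 14, 6, 8, 13 and 23. A seventh CHCHD3 member, of height 6, lay in intron 4. Neither gene had an exonic peak. These were the longest of only 4 runs of 3 or more members with gaps of at most 1000 nt, which held 22 members in all.

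The other 2 runs lay in FMO5 and AUTS2. In intron 6 of 8 of FMO5, a flavin monooxygenase gene, 5 members stood within 1018 nt of chromosome 1 (146675279 to 146676296, minus strand), with heights of 5, 8, 5, 4 and 9. The 4 higher ones were listed under FMO5, NBPF11, LINC01138 and 2 further gene identifiers each. The lowest, of height 4, was listed under NBPF11 and 2 other identifiers but not FMO5. Genes of the NBPF family are near-identical copies, so the gene of these peaks is uncertain. AUTS2 had 3 members of heights 6, 5 and 5 within 650 nt in intron 5 of 17. Members of the 4 runs pooled had a median height of 8, against 6 for the 1213 members with no neighbour within 1000 nt. Heights ran from 6 to 15 in the SPMAP2L run and from 6 to 23 in the CHCHD3 run. They ran from 4 to 9 in FMO5 and from 5 to 6 in AUTS2, so the pooled median does not describe each run. Peaks of 1 run are not independent of one another, and the difference was not tested.

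**Figure D5:**
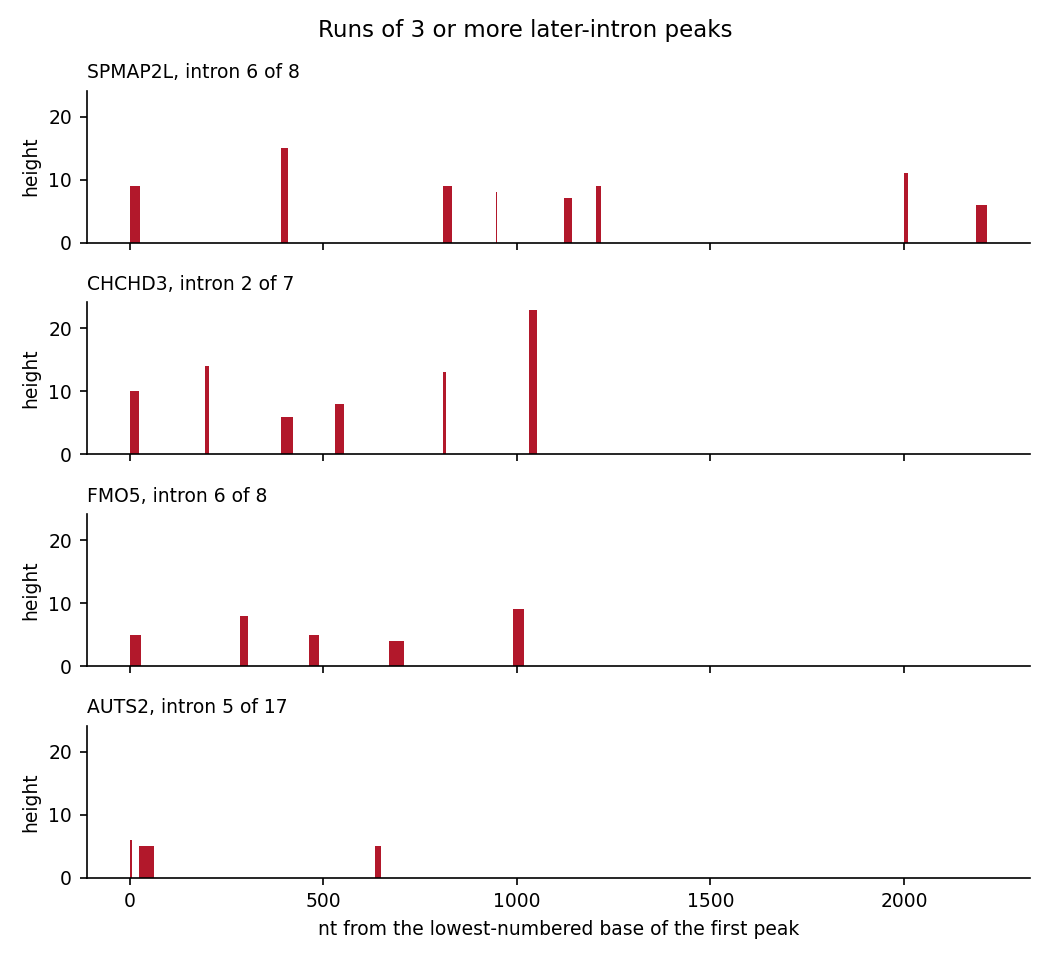
Bars show the height (vertical axis) and width of each later-intron peak in the 4 runs of 3 or more, by its distance in nt from the lowest-numbered base of the run. SPMAP2L has 8 peaks over 2214 nt and CHCHD3 has 6 over 1052 nt, with the highest, 23, at the right end.

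Of the long non-coding RNA genes, MIR924HG had 4 members, with heights of 6, 9, 6 and 8 in introns 2 and 3 of 3. FIRRE, a nuclear RNA that takes part in chromosome organization, had 3 in order of position with heights of 8, 9 and 7, the first pair in intron 10 and the last in intron 2 of 12. CASC15 had 3, of heights 6, 9 and 6, in introns 4 and 5 of 11. By called gene, 1191 members belonged to protein-coding genes, 46 to long non-coding RNA genes, 12 to transcribed pseudogenes, 4 to microRNA genes and 6 to identifiers not found in the gene table. None of the 1259 members was found inside a small RNA gene of the list's annotation by the distance to the nearest start site. For the 591 minus-strand members this check could not find one, because their deposited distances inside a gene are negative.

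Genes of splicing, the nucleolus and translation held later-intron peaks in 0 to 5 genes per list, mostly of low height. Among hnRNPs and splicing factors 4 of 59 genes had one (6.78%, 1.88 to 16.5), against 5.01% of all protein-coding genes, and 47 of the 59 had a peak of some kind, against 31.0% of all protein-coding genes. They were HNRNPM (height 9 in intron 3 of 16), ARGLU1 (7 and 8), HNRNPLL (6) and PTBP2 (6), with a median of 7 over 5 members. None of 13 SR proteins and TRA2 splicing regulators had one, which allows a share of up to 23.1%, while 10 of them had another peak. Likewise 0 of 28 nucleolar structure and RNA polymerase I genes had one (up to 10.7%), and 16 had another peak. Ribosome assembly factors had one in 5 of 76 genes (6.58%, 2.17 to 14.7), NOP58 with 42 and GAR1, NSA2, SDAD1 and UTP15 with 6 each. Among 41 RNA helicases of the DEAD and DEAH families, DDX50 and DHX37 had one of height 5 each and DDX18 had none. Translation factors had one in 2 of 44, EIF4G3 with 6 and 6 and EIF3H with 6. Protein-coding snoRNA host genes had one in 3 of the 62 matched from a list written by hand (TNPO2, NOP58 and RPL23), and 61 of the 62 had a peak of some kind. That list leaves out most of the 39 genes of any type that had a later-intron member and a snoRNA gene inside by the gene table, among them RANBP1, MATR3 and AIMP2. Cytosolic ribosomal protein genes had one in 3 of 89 (3.37%, 0.701 to 9.54), and 2 of them, RPL23 with 17 and RPL22 with 6, are not Y-linked. The remaining one is Y-linked, as are 2 of all 1259 members, and such genes have close X-linked copies, so these calls are uncertain. The median gene lengths of these 8 lists ran from 5.06 kb in ribosomal protein genes to 29.1 kb in the helicases.

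Chromatin and stem cell genes gave single low members in most cases. Chromatin organization and lamina genes had one in 10 of 56 genes (17.9%, 8.91 to 30.4), with a median height of 6 over 13 members and a median gene length of 52.1 kb. The share was 5.01% over all protein-coding genes and 5.18% over those of 30 to 100 kb. It was 13.9% over those of 100 to 300 kb and 32.2% over those of 300 kb or more. Of the 10 genes, all but SUV39H2 were longer than 100 kb, so no single class matches the list in length. SMARCC1, a BAF subunit, led with 28 in intron 20 of 27, followed by HMGA2, a chromatin architectural protein, with 9 in intron 3 of 4, and by ARID1B and CHD2, a chromatin remodeler, with 6. Pluripotency factors had one in 3 of 33 genes (9.09%, 1.92 to 24.3). They were DPPA4, a chromatin-associated protein of pluripotent cells (12, intron 3 of 6), JARID2, a Polycomb partner (9, intron 2 of 17), and TERF1, a telomere-binding protein (9, intron 6 of 8). The other members of that list, among them POU5F1, NANOG and LIN28A, had none. Genes with no second intron, such as SOX2, which has no intron, could not hold such a peak and are still counted in the lists. Polycomb genes had one in 2 of 31, JARID2 and AEBP2 (6 and 9).

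The list of very long neuronal and adhesion genes also held genes of other kinds, such as WWOX, and had the largest share of the 16 lists examined. A later-intron peak was called in 26 of 57 genes (45.6%, 32.4 to 59.3), whose median length was 1171 kb, and the 45 members had a median height of 6. PTPRG, a receptor tyrosine phosphatase, had the highest with 9, followed by WWOX (8), CTNNA2, a catenin of neurons (7), and CSMD2 (6). Protein-coding genes of 300 kb or more, a class with no upper limit, had one in 32.2%, and the list was not matched to that class in length. Markers of neuroectoderm, mesoderm, endoderm and feeder-type fibroblasts had one in 0 of 15, 0 of 15, 0 of 13 and 0 of 15 genes, which allows shares of up to 20%, 20%, 23.1% and 20%. Their median gene lengths were 10.6, 11.3, 6.74 and 36.2 kb. The lists were compared by counts only.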

How the data were processed

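The series has 2 iCLIP samples of FLAG-tagged DDX18 in H9 cells and 1 peak list for both. Peaks were annotated on hg19 by annotatePeaks.pl, per the file headers. FastQC 0.10.1 and BWA are named in the submitters' processing notes. How peaks were called, made significant or cleared of duplicate reads is not given in the sources used here. The height is a signal deposited by the authors as whole numbers, not scaled to depth or RNA abundance. Expected height and p-value were deposited in the peak names and are the authors' own. Reads per sample are unknown here.

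Members were intron entries with intron number 2 or more, no repeat name, and not inside a SNORD, SNORA or SCARNA gene, with each position counted once. The check for such genes could act on plus-strand peaks only. Of entries at 1 position, the one whose called gene is that of the annotated transcript was kept, and otherwise the one numbered first. First introns follow the same rule, and internal coding exons are neither the first nor the last. Gene names, lengths and nested snoRNA genes came from RefSeq's GRCh38.p14 gene table, with no strand considered. Nesting rests on gene positions within that table, which were not set against peak positions. Intervals are exact 95% binomial (Clopper-Pearson, for medians by order statistics). For a count of 0 the limit is 3 counts of the total. No hypothesis test was made, since peaks of 1 list are not replicates. The rule and the interval code were tested on simulated data, with all simulated peaks on the plus strand. Python 3.11.15, pandas 2.3.3 and SciPy 1.17.1 were used.

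The members and gene lists were chosen with earlier results of these data known. The height limit of 40, the shares at a height of 6 and at 15 nt, the gene length classes, the density per Mb, the runs and the division by nested snoRNA genes were chosen after values were seen. Genes named are the 15 highest members, the 10 genes with most members, the 5 with the largest summed height, the 5 members of smallest p and up to 4 genes per list. Further genes, namely those of the other members of height 40 or more, of lower members in genes with a snoRNA gene, of TEAD1 and MGMT, of the runs and of the long non-coding RNAs, were named after their values were seen. A few genes that the rule names are not reported here, Y-linked genes are counted but not described, and peak sequences were not used here. The 10 alternatives cover counting, gene agreement, significance, small RNAs, intron number, repeats, very high and low peaks and transcript type.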

Additional observations from a re-analysis of the deposited data

How the results depend on the processing

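Of 90 values from 9 results under 10 alternatives, 67 stayed within the interval of the main value or within 1.5 times a main count, and 23 moved. For the share of height, that interval (1.86 to 1.92%) treated units of height as independent counts, although 1 member held 14.1% of the members' height. It does not measure the spread of that share, so a value of it that moved can be a small change. Where members were removed or added, the change follows from that construction. With only peaks of a deposited p up to the median, 485 positions in 440 genes remained (6.01% of positions, 1.36% of height), the median height over expected height was 600 and the ratio of the median height of later over first introns was 0.857, against 1 in the main setting. With only peaks of height 8 or more, 222 positions in 205 genes were left (2.53% of positions, 1.09% of height), with a median height of 9 and 225 times the expected height. With repeat names kept, there were 2076 positions in 1678 genes (12.9% of positions, 25.2% of height). With intron 3 or more, the shares were 5.99% of positions and 1.48% of height, and with coding transcripts only 7.05% and 1.71%. The share of height was 1.36% without the 10 highest members, 1.77% over all entries and 1.84% with gene agreement. The small RNA rule changed none of the 9 results, whether small RNA genes of other classes were also left out or snoRNA genes were kept. Neither setting could act on the 591 minus-strand members, so these unchanged values say nothing about them. The share in the last intron and the share within 100 nt of another member did not leave their intervals in any of the 10 alternatives. Leaving out a replicate was not run, and no paired analysis was possible because the list has no value per replicate. The lack of reads per sample limits how firmly any low peak can be read, since 988 of 1259 members had a height of 6 or less.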
